A study of Mus musculus with 6 samples.

Results

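Complement is a protein cascade of innate immunity, and the genes described here encode its components, receptors and regulators. The list held 37 names, of which C1s is listed in RefSeq as a synonym of C1s1, so it covered 36 genes. Ensembl identifiers were paired with mouse symbols, and a gene was kept when its identifier was well formed and unique and its 6 values were readable, under 1000000 and whole numbers of fragments at a single gene length. By this rule 25 of the 36 genes had an intact row, among 19033 genes kept in all. C1rl, C1s1, C2, Cfd, Colec11, Colec12, C8g, C3ar1, Cfi, Clu and Vtn had no intact row in the damaged tables and are not analysed here. Of the 25 genes, 20 reached a mean of at least 1 FPKM (fragments scaled to gene length and to library size) over the 6 libraries and were tested. The tested genes nearest to that limit were C7 at a mean of 1.83 FPKM and C5ar2 at 1.94 FPKM, and Hc, at 0.359 FPKM, was the nearest below it.

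RNA sequencing libraries came from 3 old and 3 young C57/BL6 mice, 1 library per mouse, and the old and the young mice had all received acid injury of the lung. The labels call the material vascular endothelial cells of the lung, while the protocol speaks of removed and homogenized tissue and names no step of cell isolation. Age is given as old or young with no months, and neither sex nor time after injury is given. No uninjured mice were analysed here, so the comparison is of old with young mice after injury and shows no response to injury itself.

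Complement can be set off by 3 routes. In the classical route the C1 complex (C1q with the proteases C1r and C1s) cleaves C4 and C2, in the lectin route collectins and ficolins do so through the MASP proteases, and the alternative route amplifies C3 cleavage through factors B and D and properdin. All converge on C3 and then on C5, from which the membrane attack complex is assembled, and the fragments C3a and C5a act on receptors of leukocytes. Soluble and membrane-bound inhibitors hold the cascade in check on host cells, among them endothelial cells, while much of the circulating protein is made in the liver and C1q is made chiefly by macrophages and dendritic cells.

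The libraries held 11381122 to 17931463 fragments, as implied by the values. Markers of the labelled cell type were low in the old libraries. The 12 intact genes of a list of 15 endothelial markers summed to 44.2 to 154 FPKM across old and 537 to 1490 FPKM across young mice, and 10 of the 12 were called lower. The 9 intact genes of a list of 12 fibroblast markers summed to 2518 to 5498 FPKM across old and 151 to 314 FPKM across young mice, and 8 of the 9 were called higher. By mouse the endothelial sum was 1490, 882 and 537 FPKM in young mice 1, 2 and 3. The 5 intact smooth muscle and pericyte markers of 7 listed summed to 614 to 799 FPKM in old mice. In young mice 1, 2 and 3 they summed to 63.3, 1259 and 64.0 FPKM, so young mouse 2 stood apart there, and Acta2 was the largest part in each library. In neutrophil and in macrophage and monocyte markers, young mouse 1 stood apart from the other young mice. The 8 intact neutrophil markers of 10 listed summed to 336 to 942 FPKM in old mice, against 55.9 FPKM in young mouse 1 and 24328 and 24864 FPKM in young mice 2 and 3. The 13 intact macrophage and monocyte markers of 14 listed summed to 863 to 2272 FPKM in old mice, against 447 FPKM in young mouse 1 and 3318 and 9682 FPKM in young mice 2 and 3. Lyz2 made up most of this sum except in young mouse 1, at 731 to 1902 FPKM in old mice and 2948 and 8866 FPKM in young mice 2 and 3. In young mouse 1 it was at 62.5 FPKM, and Lyve1 was the largest part at 252 FPKM. Lyve1 was at 3.57 to 29.1 FPKM across old and 54.7 to 252 FPKM across young mice. Its log2 fold change (old minus young) of -3.23 was near the median of the endothelial markers, -3.25. The sum for young mouse 1 may therefore not measure macrophage content alone. By limma 0 of 8 neutrophil and 0 of 12 tested macrophage and monocyte markers passed (0 and 2 lower at an unadjusted p under 0.05). In bulk RNA, fewer cells of a type and less RNA per cell cannot be told apart.

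In these libraries, 3 of the 20 tested complement genes rose in old mice and 0 fell. The genes that rose were Serping1, C3 and C4b, and 17 did not pass. The test was limma on log2(FPKM + 1) with a Benjamini-Hochberg adjusted p under 0.05 as the threshold. Across all 10010 genes tested, 4.98% were called, 2.95% higher and 2.03% lower in old mice. At an unadjusted p under 0.05, 5 complement genes were higher and 2 lower, against 11.3% of all genes tested higher and 11.9% lower. For 7 of the 20 genes the 3 old libraries all lay on one side of the 3 young ones (5 higher and 2 lower in old mice), against 31.1% of all genes tested (14.5% higher and 16.7% lower). Both of these counts include Mbl2 as higher and C5ar2 as lower. These genes reached the mean of 1 FPKM only through the group where they were high. Mbl2 had a mean of 0.517 FPKM across young and C5ar2 of 0.177 FPKM across old mice. The median log2 fold change (old minus young) was 0.73 over the 20 genes and -0.01 over all genes tested, and 15 of the 20 values were above 0, against 49.25% of all genes. Of the 15, C1qa, C1qb, C1qc and Cfp turned to -0.65, -0.33, -0.64 and -0.86 without young mouse 1. These genes also varied together from library to library, so the 20 values are not independent.

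**Figure D1:**
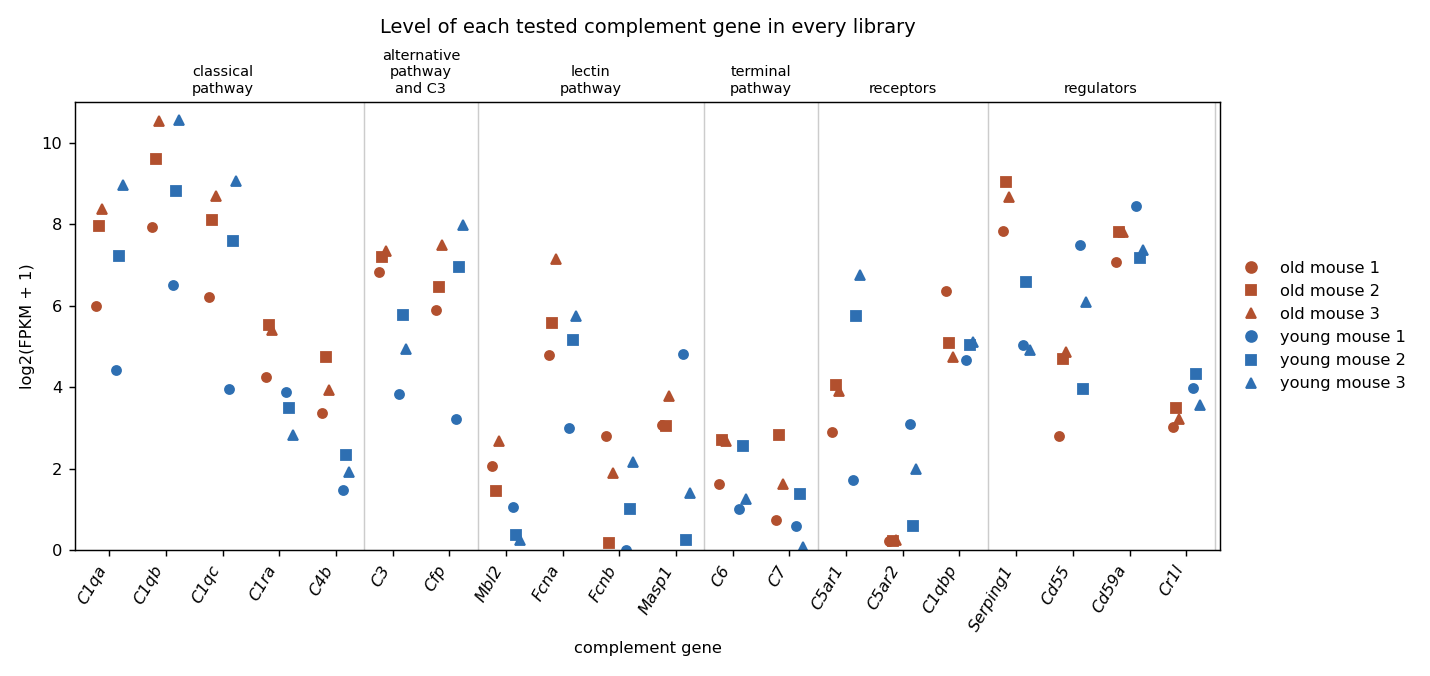
Level of each of the 20 tested complement genes as log2(FPKM + 1), grouped by role along the horizontal axis, with 1 point per library (old mice in orange at the left of each gene, young mice in blue at the right, mouse numbers by symbol shape). The old points of Serping1, C3 and C4b lie above all young points, while the C1q genes, Cfp and C5ar1 range widely within the young group.

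**Figure D2:**
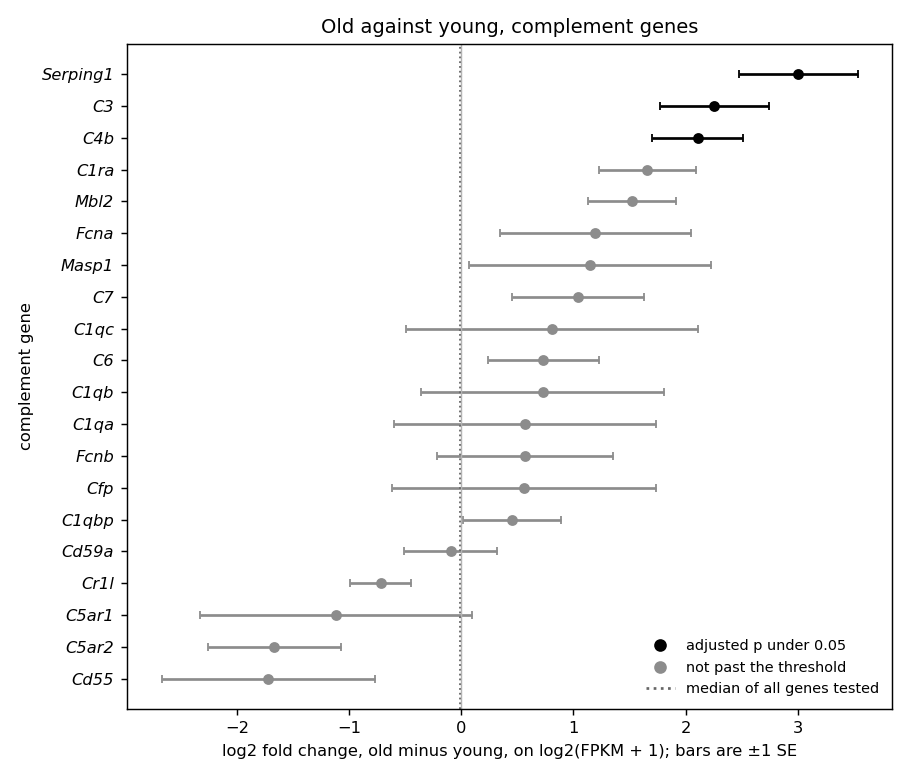
Log2 fold change, old over young, computed as log2(FPKM + 1), for the 20 tested complement genes, sorted by size, with bars of 1 standard error from limma. Black points passed an adjusted p of 0.05 (Serping1, C3 and C4b), grey points did not, and the dotted line is the median of all 10010 genes tested.

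The classical route was represented by 6 intact genes, of which 5 were tested. C1q, the recognition molecule, is built from the A, B and C chains, whose genes C1qa, C1qb and C1qc lie together on chromosome 4 between 136880129 and 136898803 (GENCODE M21, GRCm38). C1qb had 244, 775 and 1465 FPKM in old mice 1, 2 and 3, against 89.9, 447 and 1509 FPKM in young mice 1, 2 and 3. It had the highest mean level of all 25 intact genes, 755 FPKM. C1qa had 62.3, 246 and 329 FPKM in the old mice and 20.5, 148 and 494 FPKM in the young mice. C1qc had 73.7, 275 and 415 FPKM in the old mice and 14.6, 191 and 532 FPKM in the young mice.

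The 3 chains thus varied together from library to library, each lowest in young mouse 1 and highest in young mouse 3, and the groups overlapped fully. Within the young group the highest value was 16.8 times the lowest for C1qb, 24.1 times for C1qa and 36.6 times for C1qc, whereas the ratio of C1qb to C1qa stayed between 3.02 and 4.46 and that of C1qc to C1qa between 0.710 and 1.29 in the 6 libraries. None of the chains passed, with log2 fold changes of 0.57 ± 1.17 (SE, limma adjusted p = 0.806) for C1qa, 0.73 ± 1.09 (adjusted p = 0.718) for C1qb and 0.81 ± 1.30 (adjusted p = 0.740) for C1qc. The sign turned without young mouse 1, to -0.65, -0.33 and -0.64 for C1qa, C1qb and C1qc, with adjusted p of 0.699, 0.854 and 0.693. Over all settings tried the adjusted p ran from 0.103 to 0.976 for the 3 chains.

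Of the 13 intact macrophage and monocyte markers, 10 were likewise lowest in young mouse 1 and 7 highest in young mouse 3, while Mrc1, Mertk and Lyve1 were highest in young mouse 1 at 83.4, 25.4 and 252 FPKM, Marco and Cd163 in young mouse 2 and Siglecf in old mouse 2. Csf1r, the receptor of macrophage colony-stimulating factor, had 14.0, 19.0 and 34.5 FPKM in old mice 1, 2 and 3, against 1.31, 19.9 and 56.3 FPKM in young mice 1, 2 and 3. Cd68, a lysosomal protein of macrophages, had 56.1, 94.9 and 192 FPKM in the old mice and 11.7, 155 and 391 FPKM in the young mice. The ratio of C1qa to Csf1r lay between 4.44 and 13.0 in old and between 7.44 and 15.7 in young libraries, so the groups overlapped in that ratio too. The part of macrophage content in the C1q values was not tested.

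The RefSeq promoter windows (250 bases before to 50 after the annotated start, build GRCm38.p6) of C1qb at chr4:136886151-136886450 and C1qc at chr4:136892865-136893164, both on the minus strand, are shown because these chains varied together (C1qa was not matched in the RefSeq table). Capitals mark matches to any of 4 motifs searched on both strands, none of which overlapped another in these windows.
C1qb: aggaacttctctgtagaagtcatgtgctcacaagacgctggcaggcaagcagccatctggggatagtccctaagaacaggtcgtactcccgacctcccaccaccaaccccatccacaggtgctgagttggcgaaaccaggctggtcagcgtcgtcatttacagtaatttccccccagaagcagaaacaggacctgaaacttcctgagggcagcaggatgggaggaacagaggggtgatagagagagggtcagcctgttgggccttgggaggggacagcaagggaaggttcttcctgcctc
C1qc: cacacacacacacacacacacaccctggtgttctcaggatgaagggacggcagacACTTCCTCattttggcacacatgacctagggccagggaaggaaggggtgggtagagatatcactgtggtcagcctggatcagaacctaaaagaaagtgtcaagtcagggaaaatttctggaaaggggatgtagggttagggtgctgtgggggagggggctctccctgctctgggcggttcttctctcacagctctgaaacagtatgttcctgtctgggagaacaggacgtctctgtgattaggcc
The C1qc window held 1 match to GAGGAAGT, the letters of a PU.1 site (a factor of myeloid cells), on the opposite strand and starting 195 bases before the start, and these letters occur in 3.20% of 32851 promoter windows. The C1qb window held no match to that motif or to TTGCNNAA (C/EBP) or TTCNNNGAA (STAT), nor to the TATA box letters given with the C3 window. These are matches of letters and not measured binding.

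C1ra, the gene of the C1r protease, had 18.1, 45.4 and 41.4 FPKM in old mice 1, 2 and 3, against 13.8, 10.3 and 6.14 FPKM in young mice 1 to 3. The groups did not overlap, but old mouse 1 lay close to young mouse 1. C1ra did not pass (log2 fold change 1.66 ± 0.43, SE, limma adjusted p = 0.0774, and 0.0583 to 0.310 under its other settings). Its near copy C1rb had no intact row, and 48.0% of the 50-base words of C1ra transcripts also occur in C1rb, so the value may hold reads of both.

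C4b, one of the mouse C4 genes (chromosome 17, 34728380 to 34743882), encodes the component that C1s cleaves. C4b had 9.36, 25.9 and 14.2 FPKM in old mice 1, 2 and 3, against 1.77, 4.03 and 2.78 FPKM in young mice 1, 2 and 3. Every old library was above every young one, and the group means were 16.5 ± 8.53 FPKM across old and 2.86 ± 1.13 FPKM across young mice (SD, n = 3 each). C4b rose by 2.11 ± 0.41 (SE) on the log2 scale, a 4.31-fold difference (limma adjusted p = 0.0366, and 0.0292 to 0.109 under its other settings). The call ended in all 6 fits that left out 1 library, at log2 fold changes of 1.74 to 2.43, and without a filter on low values. Against young mouse 1 alone the log2 fold change was 2.54. The neighbouring gene C4a, which in mice encodes the sex-limited protein, held 52 fragments in the old libraries (0.199 ± 0.107 FPKM, SD, n = 3) and 25 in the young libraries (0.0867 ± 0.0521 FPKM, SD, n = 3) and was not tested. Of the 50-base words of C4b transcripts, 34.6% also occur in C4a, so the division of fragments between these genes is uncertain.

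C3, the component at which all routes meet (chromosome 17, 57203970 to 57228136), was one of the complement genes that rose. C3 had 111, 144 and 160 FPKM in old mice 1, 2 and 3, against 13.4, 53.8 and 29.8 FPKM in young mice 1 to 3. The old libraries lay within 1.44-fold of each other and all above the young ones, which spanned 4.02-fold with young mouse 1 lowest. The means were 139 ± 24.8 FPKM across old and 32.3 ± 20.3 FPKM across young mice (SD, n = 3 each). C3 rose by 2.26 ± 0.49 (SE) on the log2 scale, a 4.78-fold difference, with an adjusted p just under the threshold (limma adjusted p = 0.0499, and 0.0292 to 0.145 under its other settings). The call ended with both other scalings between libraries, with a pseudocount of 0.1, without a filter, and in 5 of the 6 fits that left out 1 library. It remained without young mouse 2, and against young mouse 1 alone the log2 fold change was 3.27.

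The C3 promoter window (chr17:57228087-57228386, minus strand, RefSeq, GRCm38.p6) is shown because C3 rose and was matched in the RefSeq table, in which C4b and Serping1 were not matched. Capitals mark the same motifs.
C3: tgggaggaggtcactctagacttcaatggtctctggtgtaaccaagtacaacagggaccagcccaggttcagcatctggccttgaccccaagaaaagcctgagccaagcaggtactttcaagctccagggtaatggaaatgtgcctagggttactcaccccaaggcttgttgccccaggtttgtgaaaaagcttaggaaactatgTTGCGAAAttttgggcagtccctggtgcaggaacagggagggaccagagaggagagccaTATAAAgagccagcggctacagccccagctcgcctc
It held 1 match to TTGCNNAA, starting 45 bases before the annotated start, and 1 to TATAAA, the letters of a TATA box, starting at base 15 after it. The TATAAA match thus lies downstream of the annotated start, and whether it works as a TATA box was not tested. A match to TTGCNNAA was present in 10.8% of all windows and in those of 6 of the 26 complement genes with a window (C1ra, C1rl, C1s1, C3, C5ar2 and Fcnb), and the TATA box letters in 13.6% of all windows and in those of 5 complement genes.

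Of the alternative route proper, Cfp, which encodes properdin, the stabilizer of the C3 convertase, had 58.9, 86.1 and 178 FPKM in old mice 1, 2 and 3. In young mice 1, 2 and 3 it had 8.32, 123 and 251 FPKM. The order of libraries was that of the C1q chains within each group, and the ratio of Cfp to Csf1r lay between 4.20 and 5.15 in old and between 4.45 and 6.38 in young libraries. The log2 fold change was 0.56 ± 1.17 (SE, limma adjusted p = 0.811, and 0.0569 to 0.971 under its other settings), and it was -0.86 without young mouse 1 (adjusted p = 0.439). Cfb, the gene of factor B, was near the floor of detection, with 11, 6 and 36 fragments in the old and 6, 8 and 7 fragments in the young libraries. It shares 79.5% of its exon bases with the annotated read-through gene Gm20547, so its value is uncertain.

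**Figure D3:**
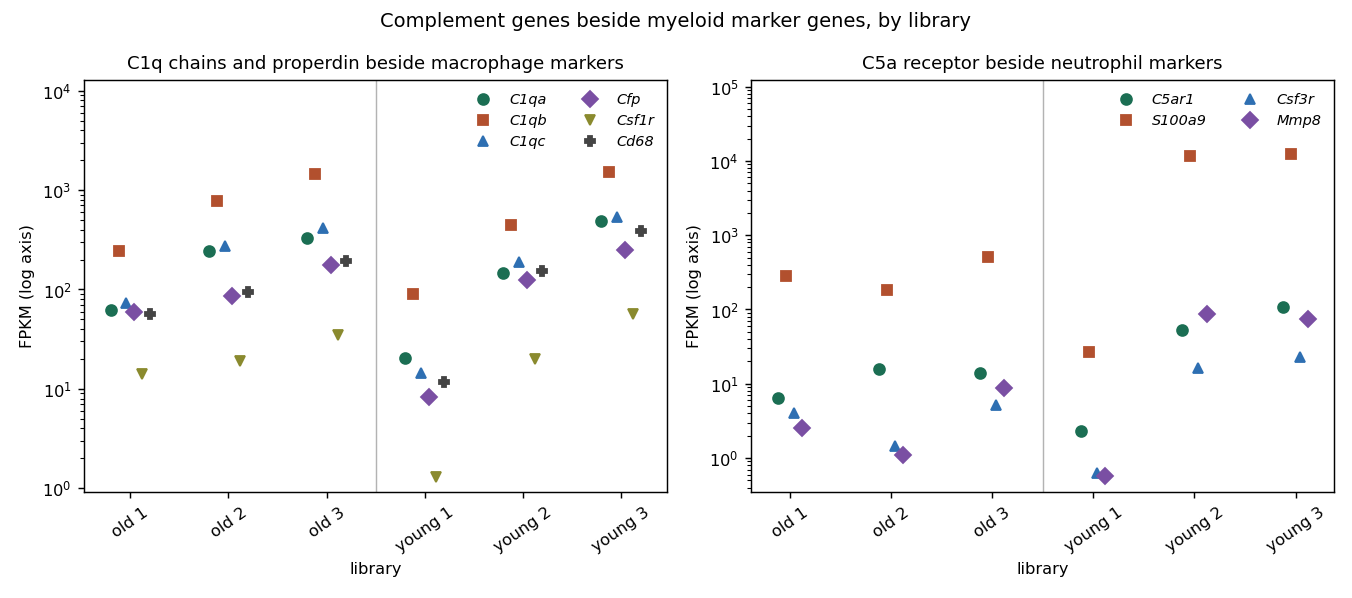
FPKM on a log axis in each library for the C1q chains and Cfp beside the macrophage markers Csf1r and Cd68 (left panel), and for C5ar1 beside the neutrophil markers S100a9, Csf3r and Mmp8 (right panel), old libraries at the left of each panel. All genes of the left panel are lowest in young mouse 1 and highest in young mouse 3, and C5ar1 at 53.1 and 106 FPKM is highest in the neutrophil-rich young mice 2 and 3.

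In the lectin route, 0 of 4 tested genes passed by limma (1 at an unadjusted p under 0.05). That gene was Mbl2, a mannose-binding lectin known as a liver product, with 3.23, 1.76 and 5.42 FPKM in old mice 1, 2 and 3, against 1.08, 0.293 and 0.183 FPKM in young mice 1, 2 and 3. Its groups did not overlap, on 176 fragments in the old and 29 in the young libraries, and its log2 fold change was 1.52 ± 0.39 (SE, limma adjusted p = 0.0759, and 0.0729 to 0.336 under its other settings). The intact liver markers (3 of 4 listed) summed to 65.6 to 266 FPKM across old and 64.4 to 138 FPKM across young libraries, with albumin (Alb) at 32.7 to 80.0 FPKM across old and 23.5 to 53.0 FPKM across young libraries. The part of liver transcripts in the Mbl2 values was not tested.

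Fcna, which encodes ficolin A, a macrophage-made lectin, had 26.5, 46.4 and 141 FPKM in old mice 1, 2 and 3, against 7.06, 34.7 and 53.0 FPKM in young mice 1, 2 and 3. Its groups overlapped, with young mouse 1 lowest as for the C1q chains (log2 fold change 1.19 ± 0.85, SE, limma adjusted p = 0.431). Fcnb, the ficolin of granulocytic cells, had 5.93, 0.131 and 2.75 FPKM in old mice 1, 2 and 3, against 0, 1.01 and 3.51 FPKM in young mice 1 to 3. The 0 of young mouse 1 allows up to 0.126 FPKM at a floor of 3 fragments (counting error only), and the log2 fold change was 0.57 ± 0.79 (SE, limma adjusted p = 0.698).

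Masp1, a protease of the lectin route, had 7.45, 7.31 and 12.7 FPKM in old mice 1, 2 and 3, against 27.0, 0.187 and 1.66 FPKM in young mice 1, 2 and 3. Among the tested genes with no value of 0, it had the widest range within the young group, 144-fold, and its highest and lowest values were both young. Its log2 fold change of 1.15 ± 1.08 (SE) did not pass (limma adjusted p = 0.552, and 0.0491 to 0.926 under its other settings). Without young mouse 1 it was 2.47 and passed (adjusted p = 0.0491), and with young mouse 1 as the whole young group it was -1.51. Masp2, the protease that cleaves C4 and C2, held 7, 12 and 0 fragments in the old and 16, 28 and 6 fragments in the young libraries, and 54.9% of its exon bases overlap Tardbp on the opposite strand.

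In the terminal route, 0 of 2 tested genes passed, also at an unadjusted p under 0.05 (0 of 2, limma). C6, an early member of the membrane attack complex, had 2.10, 5.53 and 5.43 FPKM in old mice 1, 2 and 3, against 1.01, 4.88 and 1.41 FPKM in young mice 1, 2 and 3. C7, the next to join, had 0.670, 6.07 and 2.08 FPKM in the old mice and 0.521, 1.62 and 0.0495 FPKM in the young mice. Both overlapped between the groups, and both were highest in old mouse 2 (log2 fold changes 0.73 ± 0.50 and 1.04 ± 0.59, SE, limma adjusted p = 0.408 and 0.329). Hc, the mouse gene of C5, held 75 fragments in the old and 135 in the young libraries, at 0.0982 to 0.765 FPKM over the 6 libraries. The gene lengths implied for Masp1, Mbl2, C6 and C7 differ from the merged exon lengths of GENCODE M21, which bears on their level against other genes and not on the comparison of libraries.

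Among the receptors 0 of 3 tested genes passed by limma (1 lower at an unadjusted p under 0.05). C5ar1, the main C5a receptor of neutrophils and macrophages, had 6.50, 15.7 and 14.1 FPKM in old mice 1, 2 and 3, against 2.33, 53.1 and 106 FPKM in young mice 1 to 3. The old values lay between those of young mouse 1 and the other young mice. The log2 fold change was -1.12 ± 1.22 (SE, limma adjusted p = 0.609, and 0.0518 to 0.964 under its other settings), and it was -2.62 without young mouse 1 and 1.89 against young mouse 1 alone. The neutrophil protein gene S100a9 had 285, 182 and 516 FPKM in old mice 1, 2 and 3, against 27.1, 11686 and 12541 FPKM in young mice 1, 2 and 3, and its part in the C5ar1 values was not tested.

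C5ar2, the second C5a receptor, was highest in young mouse 1, where C5ar1 was lowest. It had 0.170, 0.173 and 0.188 FPKM in old mice 1, 2 and 3, against 7.61, 0.525 and 2.98 FPKM in young mice 1 to 3. The groups did not overlap, the old libraries held 27 fragments in all and the young 667, and young mouse 1 held 480 of these. The log2 fold change was -1.67 ± 0.59 (SE, limma adjusted p = 0.158, and 0.0394 to 0.299 under its other settings), and the pseudocount compresses it, since with 0.1 in place of 1 it was -3.15. It passed without young mouse 2 (-2.31, adjusted p = 0.0410), and against young mouse 1 alone the log2 fold change was -2.87. Without young mouse 1, and with a filter at a mean of 5 FPKM, C5ar2 was below the filter and was not tested. C1qbp, a largely mitochondrial protein that binds the heads of C1q, had 81.6, 32.9 and 25.7 FPKM in old mice 1, 2 and 3, against 24.6, 32.0 and 33.6 FPKM in young mice 1, 2 and 3. Apart from old mouse 1 its 5 values lay close together, and its log2 fold change was 0.45 ± 0.44 (SE, limma adjusted p = 0.566) and -0.03 without old mouse 1.

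Among the regulators, 1 of 4 tested genes rose and 0 fell (1 lower at an unadjusted p under 0.05, limma). Serping1 (chromosome 2, 84765387 to 84775444) encodes the C1 inhibitor, a secreted protein that inactivates C1r, C1s and the MASP proteases. Serping1 had 229, 525 and 405 FPKM in old mice 1, 2 and 3, against 31.8, 94.2 and 29.3 FPKM in young mice 1 to 3. The lowest old library was above the highest young one, and the means were 386 ± 149 FPKM across old and 51.8 ± 36.8 FPKM across young mice (SD, n = 3 each). It rose by 3.01 ± 0.53 (SE) on the log2 scale, an 8.03-fold difference and the largest among the 20 tested complement genes (limma adjusted p = 0.0298, and 0.0173 to 0.102 under its other settings). The call ended without a filter and in 5 of the 6 fits that left out 1 library, at log2 fold changes of 2.71 to 3.34, and remained without young mouse 2 at 3.54.

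Serping1, C3, C4b and C1ra were set beside the fibroblast marker Dcn, the gene of decorin, since connective tissue cells are also known to make these proteins. Dcn had 1085, 2916 and 2057 FPKM in old mice 1, 2 and 3, against 104, 153 and 76.7 FPKM in young mice 1 to 3. The ratio of Serping1 to Dcn was 0.180 to 0.211 in the old libraries and 0.306 to 0.615 in the young. The ratio of C3 to Dcn was 0.0495 to 0.103 in the old libraries and 0.128 to 0.388 in the young. The ratio of C4b to Dcn was 0.00688 to 0.00889 in the old libraries and 0.0170 to 0.0362 in the young, and that of C1ra to Dcn was 0.0156 to 0.0201 in the old libraries and 0.0670 to 0.133 in the young. Each of these ratios was lower in every old library than in every young one, although the levels of these genes were higher in the old libraries. The ratios depend on the marker chosen. Among the 9 tested fibroblast markers the log2 fold change was 4.11 for Dcn and ran from 1.05 for Gsn to 6.29 for Mfap4. Gsn, which was not called, had 119, 245 and 82.9 FPKM in old mice 1, 2 and 3, against 84.7, 86.9 and 36.2 FPKM in young mice 1 to 3. Ratios to markers other than Dcn are not given here. Mesothelial markers (6 of 6 intact, 3 called higher) summed to 171 to 456 FPKM in the old mice, against 9.33 to 40.8 FPKM in the young mice. Krt19 was the largest part in each library, at 129 to 201 FPKM across old and 7.45 to 24.4 FPKM across young mice. Epithelial markers of the airways and alveoli (6 of 8 listed intact, 2 of 4 tested called higher) summed to 595 to 728 FPKM in the old mice, against 57.3 to 185 FPKM in the young mice. Krt8 made up most of this sum in each library, with 562, 461 and 505 FPKM in old mice 1, 2 and 3. Its values in young mice 1, 2 and 3 were 47.3, 103 and 59.1 FPKM. The genes called were Krt8 and Epcam. Sftpd and Ager did not pass (log2 fold changes 1.58 and 0.09, limma adjusted p = 0.2965 and 0.933). Lamp3 and Foxj1 were below the limit for testing. B and plasma cell markers (4 of 7 listed intact, 0 called and 3 higher at an unadjusted p under 0.05, limma) summed to 1441 to 3706 FPKM in the old mice, against 13.6 to 378 FPKM in the young mice. Igkc made up most of that sum, at 1415 to 3649 FPKM across old and 10.2 to 358 FPKM across young mice. T and natural killer cell markers (7 of 8 listed intact, 0 called and 2 higher at an unadjusted p under 0.05, limma) summed to 86.6 to 1832 FPKM in the old mice, against 5.11 to 78.9 FPKM in the young mice. The highest of these sums, in old mouse 2, was mostly Gzma at 1385 FPKM. The intact mast cell marker of 7 listed, Tpsb2, which encodes a tryptase, did not pass (limma adjusted p = 0.0585) and was at 17.8 to 273 FPKM in the old mice, against 0 to 5.54 FPKM in the young mice. The part of fibroblast, mesothelial, epithelial, smooth muscle, B cell, T cell or mast cell content in the rise of Serping1, C3 and C4b was not tested.

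**Figure D4:**
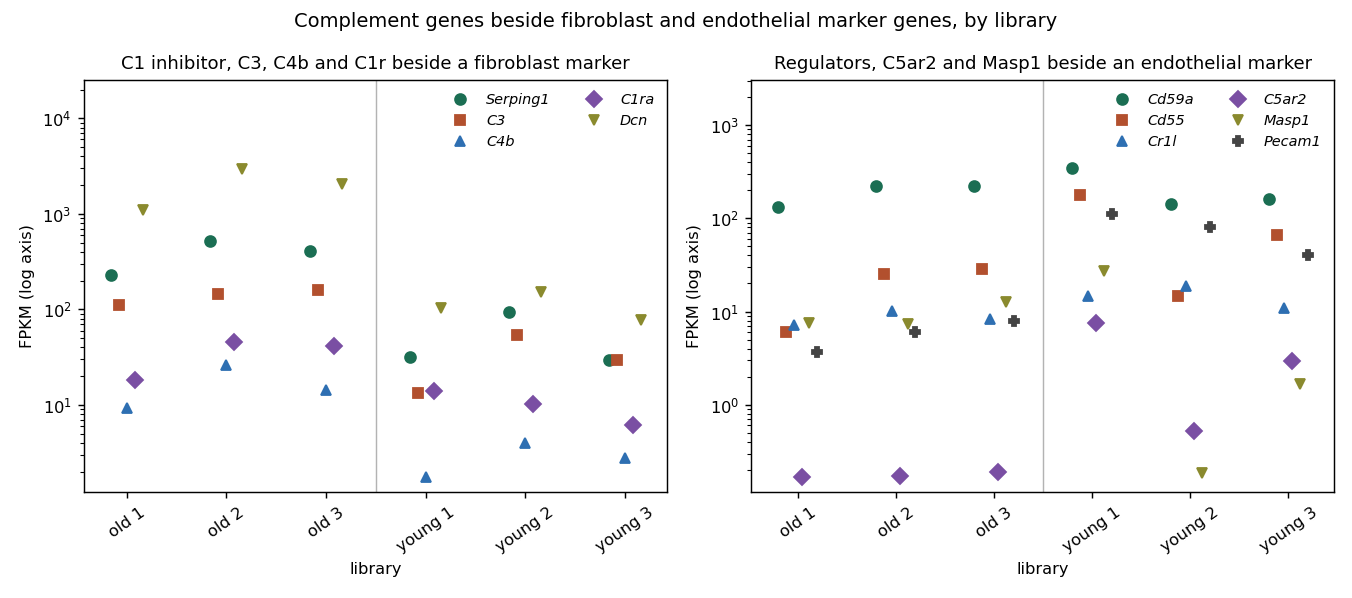
FPKM on a log axis in each library for Serping1, C3, C4b and C1ra beside the fibroblast marker Dcn (left panel), and for Cd59a, Cd55, Cr1l, C5ar2 and Masp1 beside the endothelial marker Pecam1 (right panel), old libraries at the left of each panel. Dcn at 1085 to 2916 FPKM in old libraries lies above its young values of 76.7 to 153 FPKM, as do the genes beside it, while Cd55 and C5ar2 are highest in young mouse 1 and Cd59a stays above 132 FPKM in all 6 libraries.

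Of the membrane regulators, 0 of 3 tested genes passed (1 lower at an unadjusted p under 0.05, limma). Cd59a, which blocks the last step of the membrane attack complex, had 132, 223 and 224 FPKM in old mice 1, 2 and 3, against 349, 143 and 163 FPKM in young mice 1, 2 and 3. Its groups overlapped, with the highest value no more than 2.64 times the lowest (log2 fold change -0.10 ± 0.42, SE, limma adjusted p = 0.912). Cd55, the decay-accelerating factor that takes convertases apart, had 5.98, 25.0 and 28.3 FPKM in old mice 1, 2 and 3, against 179, 14.6 and 67.0 FPKM in young mice 1, 2 and 3. Young mouse 2 lay among the old values, and the log2 fold change of -1.72 ± 0.95 (SE) did not pass (limma adjusted p = 0.322, and 0.101 to 0.606 under its other settings).

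Cr1l, which encodes Crry, the rodent inhibitor of C3 convertases, had 7.10, 10.2 and 8.27 FPKM in old mice 1, 2 and 3, against 14.9, 18.9 and 10.9 FPKM in young mice 1, 2 and 3. Its groups did not overlap, and the log2 fold change of -0.72 ± 0.27 (SE) did not pass (limma adjusted p = 0.176, and 0.159 to 0.360 under its other settings). Cd46, the membrane cofactor protein, which in mice is found mainly in testis, held 24 fragments in the old and 112 in the young libraries, with no overlap in FPKM (0.0783 ± 0.0264 in old and 0.315 ± 0.204 in young mice, SD, n = 3 each). It shares 14.2% of its exon bases with A330023F24Rik on the opposite strand, and it was below the limit for testing.

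Pecam1, the endothelial marker, had 3.73, 6.02 and 7.90 FPKM in old mice 1, 2 and 3, against 111, 80.2 and 40.0 FPKM in young mice 1 to 3. The ratio of Cd59a to Pecam1 was 28.4 to 37.1 in the old libraries and 1.78 to 4.06 in the young, and that of Cr1l to Pecam1 was 1.05 to 1.90 in the old libraries and 0.134 to 0.272 in the young, without overlap in either case. The ratio of Cd55 to Pecam1 overlapped, at 1.60 to 4.15 in the old libraries and 0.182 to 1.67 in the young. The ratios depend on the marker chosen. The log2 fold change was -3.44 for Pecam1, against -0.10 for Cd59a and -0.72 for Cr1l. Higher ratios in the old libraries therefore follow from the fall of Pecam1, and they do not measure these regulators per endothelial cell. The part of endothelial content in the values of these regulators was not tested.

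A further 32 complement names (31 genes) were listed beside the members, of which 24 had an intact row and 11 were tested. In old mice 1 of the 11 fell and 0 rose by limma (0 higher and 1 lower at an unadjusted p under 0.05), and the median log2 fold change was 0.22. The gene that fell was Cd93, first described as a C1q receptor and abundant in endothelium, at 6.65 ± 1.25 FPKM across old and 41.2 ± 8.82 FPKM across young mice (SD, n = 3 each), which fell by 2.46 ± 0.26 (SE) on the log2 scale (adjusted p = 0.00696). Vsig4, the complement receptor of tissue macrophages, was at 78.4 ± 44.0 FPKM across old and 46.4 ± 28.3 FPKM across young mice (SD, n = 3 each, limma adjusted p = 0.543). Itgb2, the shared beta chain of complement receptors 3 and 4, was at 8.90 ± 3.67 FPKM across old and 35.6 ± 37.4 FPKM across young mice (SD, n = 3 each, limma adjusted p = 0.656).

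Taking the 20 tested members by library, 11 had their lowest value in young mouse 1 and 4 their highest there. The genes highest in young mouse 1 were Cd59a, Cd55, Masp1 and C5ar2, and the genes lowest there included the C1q chains, Cfp, Fcna and C5ar1. Old mouse 1 held the lowest value of 4 genes, young mouse 3 of 4 and young mouse 2 of 1. With young mouse 1 as the whole young group, limma called Serping1 and C3 higher and C5ar2 lower (4.16% of 9920 genes were called, 2.73% higher and 1.43% lower), and C4b did not pass.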

How the data were processed

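RNA was sequenced from 3 old and 3 young mice, 1 library each. The authors deposited FPKM values for every gene, 1 table per library, and the tables were damaged as received. CASAVA 1.7, Bowtie 0.12.2 and the build mm8 are named in the submitters' processing notes with no role, and the sources used here name no counter, annotation or strand setting. Of 24720 rows, 3880 had malformed identifiers and 593 well-formed identifiers had no symbol. Every intact value is a whole number of fragments over gene length and library total. Of 19063 readable rows, 26 failed this test (tolerance 1e-06 fragments plus a relative 3e-13), and 5683 rows were left out in all. Fragment counts printed here come from that test. For a gene of 2 kb, a single fragment amounted to 0.0279 to 0.0439 FPKM, depending on the library.

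Rows of the same symbol were summed. Genes with a mean of at least 1 FPKM entered a limma fit of log2(FPKM + 1) values (version 3.58.1, R 4.3.3, variance trend, two-sided), with Benjamini-Hochberg adjustment over all 10010 genes. Fold changes are on this scale, which understates those of low genes. The method was tested on simulated data with independent errors and no library that stood apart. It was therefore not tested for a library such as young mouse 1. Gene positions and exon overlaps are from GENCODE M21 (GRCm38), whose merged exon length equalled the implied length for 78.85% of genes. Every member of the complement list was named, and of the other complement genes and cell markers those that passed and up to 4 with the highest means. One gene this rule names is not reported here. Csf1r, Cd68, S100a9, Dcn, Gsn, Pecam1 and Alb were chosen beside specific results after their values were seen. The members and lists were chosen with earlier results of these data known. Alternatives were the pseudocount, the filter, scaling, variance trend, whole-fragment test, mouse number as a block, leaving out each library and young mouse 1 alone as the young group. The last of these holds 1 young library, so its adjusted p takes no account of the spread among young mice. The ranges of adjusted p over other settings include that fit.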

Additional observations from a re-analysis of the deposited data

How the results depend on the processing

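Serping1, C3 and C4b kept their direction under all 15 alternatives each, with adjusted p from limma under 0.05 in 9, 5 and 7 of them. For Serping1 and C3 these counts include the fit against young mouse 1 alone, which holds no spread among young mice. Across all genes, 295 were called higher and 203 lower in old mice. These counts were 145 and 78 without a filter (0.762% and 0.41% of 19033 genes tested). They were 173 and 119 with a filter at a mean of 5 FPKM, where fewer genes were tested (3.23% and 2.22% of 5359). Leaving out 1 library gave 72 to 266 higher (0.717% to 2.66% of the genes tested) and 12 to 129 lower (0.119% to 1.29%). Of the complement members, 0 were called higher without a filter (5 at an unadjusted p under 0.05), and leaving out 1 library gave 0 to 2 higher and 0 to 1 lower. Members called higher numbered 2 without young mouse 2 (C3 and Serping1), 1 without young mouse 1 (Masp1) and 0 without any other library. The other complement genes called numbered 1 to 2. Against young mouse 1 alone, the log2 fold change reversed to -1.51 for Masp1 and 1.89 for C5ar1. Over the fits that left out 1 library it ran from -0.65 to 1.61 for C1qa, -0.33 to 1.69 for C1qb, -0.64 to 1.91 for C1qc, -0.86 to 1.52 for Cfp, -0.018 to 1.29 for Fcnb, -0.034 to 0.78 for C1qbp and -0.34 to 0.30 for Cd59a. The cause of these changes was not tested. The labels do not say that the mouse numbers pair the samples. Deviations of same-numbered mice correlated at -0.09, -0.00324 and 0.0102, and those of differently numbered mice from -0.177 to 0.158. With 3 mice per group these values cannot settle whether the numbers mark pairs. With the mouse number as a block, 109 genes were called higher and 17 lower, and C3 did not pass (adjusted p = 0.0762). Depth limits C4a, Cfb, Masp2, Hc and Cd46, which held 69 to 210 fragments over the 6 libraries.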
